A study of Mus musculus with 10 samples.

Results

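The genes described here are 33 type I interferon-stimulated genes, chosen by symbol as a set of well-known antiviral and signalling genes of the type I interferon response, among 12535 genes of an RNA-seq table of sorted mouse macrophages. All 33 were found in the table, and all 33 passed the filter on low values, so no member was left untested. The table covers 10 libraries of macrophages sorted as CD45+CD11b+F4/80+ cells from the pancreas or from pancreatic ductal adenocarcinoma. Resident macrophages (4 libraries) came from the healthy pancreas of mice of genotype C57/BL6 WT. Tumour-associated macrophages (TAM) came from orthotopic tumours, 14 days after organoid cells of 1 KPC line, MT4, had been implanted in the pancreas. Control TAM (3 libraries) came from C57/BL6 Ahr fl/fl mice, whose floxed Ahr alleles are intact without Cre. The cKO-labelled TAM (3 libraries) came from C57/BL6 Ahr fl/fl Lys M mice, in which Cre is driven from Lyz2, a gene active in macrophages, monocytes and neutrophils. Ages are not given, and the resident group differs from either TAM group in tumour and in the floxed allele, so the effects of these cannot be told apart. The design counts mice, and whether a library pools animals is not stated. The study asked what the tumour and the aryl hydrocarbon receptor, which Ahr encodes, do to macrophages.

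Type I interferons, the interferon-alpha family and interferon-beta, bind a receptor made of IFNAR1 and IFNAR2, whose kinases TYK2 and JAK1 phosphorylate STAT proteins, STAT2 among them. STAT2 and IRF9 are subunits of ISGF3, which binds interferon-stimulated response elements (ISREs) in the promoters of interferon-stimulated genes, and IRF7, itself induced, amplifies interferon production. Many of the induced proteins sense viral nucleic acid or block viral replication, and macrophages are a major source and target of these interferons; interferon-gamma induces an overlapping set of genes, many of them through GAS elements.

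Promoter sequences are shown for members whose upstream bases hold the ISRE core that the genes are known for, and for 1 strongly changed member whose window holds none. RefSeq windows of build GRCm38.p6 were matched by symbol for 24 of the 33 members, and the 250 bases before each start were searched on both strands for the core of the ISRE, which is GAAA, any pair of bases and GAAA again. At least 1 match was found in 9 of the 24 members (37.5%), beside 3.58% of the 8417 tested genes with a window. The 9 were Stat2, Oas1a, Oas3, Ifit1, Ifit3, Isg15, Rsad2, Bst2 and Trim30a. Windows are printed 5′ to 3′ on the gene's strand, in lower case, with every ISRE core in capitals. They were taken from the members with the strongest rises in control TAM over resident macrophages, among windows free of annotated exons. Isg15 (chr4:156200819-156201068, minus strand) holds 3 overlapping cores that end 68, 62 and 56 bases before the start. Rsad2 (chr12:26456453-26456702, minus strand) holds 1 on the opposite strand, and Ifit3 (chr19:34583279-34583528, plus strand) holds 2 on the opposite strand. Oas1a (chr5:120907526-120907775, minus strand) holds 2 overlapping cores within its last bases, and Ifit2 (chr19:34550444-34550693, plus strand) holds none of these letters.
Isg15: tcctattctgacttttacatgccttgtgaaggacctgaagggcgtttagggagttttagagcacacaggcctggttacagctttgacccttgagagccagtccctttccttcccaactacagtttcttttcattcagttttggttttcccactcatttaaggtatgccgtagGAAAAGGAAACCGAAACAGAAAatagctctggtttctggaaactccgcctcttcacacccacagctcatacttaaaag
Rsad2: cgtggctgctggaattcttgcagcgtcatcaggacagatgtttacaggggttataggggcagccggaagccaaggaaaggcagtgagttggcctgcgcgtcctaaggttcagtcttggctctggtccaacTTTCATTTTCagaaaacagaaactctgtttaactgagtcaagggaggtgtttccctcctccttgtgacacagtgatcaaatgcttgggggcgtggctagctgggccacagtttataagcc
Ifit3: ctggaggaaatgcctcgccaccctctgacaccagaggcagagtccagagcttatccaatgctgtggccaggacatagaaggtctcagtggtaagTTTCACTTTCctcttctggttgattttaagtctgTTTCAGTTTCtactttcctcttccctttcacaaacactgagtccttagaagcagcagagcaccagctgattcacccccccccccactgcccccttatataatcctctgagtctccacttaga
Oas1a: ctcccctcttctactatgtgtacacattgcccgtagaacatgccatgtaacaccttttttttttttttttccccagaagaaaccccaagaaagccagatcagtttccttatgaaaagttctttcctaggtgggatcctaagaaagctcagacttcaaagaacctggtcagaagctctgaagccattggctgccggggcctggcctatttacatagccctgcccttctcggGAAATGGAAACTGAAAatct
Ifit2: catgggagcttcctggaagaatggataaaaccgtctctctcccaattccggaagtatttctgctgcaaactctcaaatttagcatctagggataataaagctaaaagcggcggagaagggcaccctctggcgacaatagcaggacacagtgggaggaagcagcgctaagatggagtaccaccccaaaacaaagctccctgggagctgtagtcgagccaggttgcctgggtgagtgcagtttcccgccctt

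The GAS core TTCNNNGAA, a search added after the values had been seen, matched 5 of the 24 members (20.8%) and 7.38% of the tested genes. The median log2 difference of control TAM from resident macrophages was 0.90 for the 9 members with an ISRE core and 0.72 for the 15 matched members without. For cKO-labelled TAM against control TAM these medians were 0.05 and -0.04. Some windows, with or without a core, lay over annotated exons. Among those without, a window of Irf9 and that of Eif2ak2 did so for all 250 bases. A missing core there need not mean that none lies upstream of the gene. Another window of Ifit2, partly over an exon, held no core either. A match is a description of letters in this window and not a bound site.

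Reads recovered from the FPKM values, as described under the processing, summed to 10312744 to 26454684 in a library, and 22 to 26938 reads lay behind a member's value. The total that the FPKM scale implied was lower in every library, at 10126080 to 25620538 reads. It was 13931748 against a sum of 15676719 in resident replicate 1, and 12871535 against 13091798 in control TAM replicate 1. The reason for this gap was not tested. Ahr itself was at 3.84 to 4.46 FPKM in resident macrophages, 6.91 to 7.51 in control TAM and 9.65 to 11.2 in cKO-labelled TAM, so it was higher, not lower, in the group labelled as knockout. Lyz2, the gene that carries the Cre, was at 28140, 19904 and 11460 FPKM on average, and fell to 57.6% of the control TAM mean in cKO-labelled TAM (limma adjusted p = 9.39e-13). A gene-level FPKM includes reads outside a floxed exon and does not check the deletion, and any direction read from that label carries this limit. Of the defining macrophage markers, Adgre1 (706, 590 and 497 FPKM in resident, control and cKO-labelled TAM) and C1qb (7777, 4733 and 5708 FPKM) were abundant in every group. In that list of 10, 3 rose and 7 fell in control TAM, and 2 rose and 5 fell with the cKO label. Csf1r was at 1238, 534 and 454 FPKM, and Itgam at 31.4, 75.9 and 59.7. Among all tested genes, 39% were called higher and 38.1% lower in control TAM, and 20.5% and 19.1% with the cKO label. Markers of other cells also moved with the groups. Of 8 tested T and NK cell genes, 6 rose and 1 fell in control TAM, and 5 rose and 1 fell with the cKO label. That list summed to 9.29 to 10.8 FPKM in resident macrophages, 13.8 to 17.1 in control TAM and 21.1 to 22.4 in cKO-labelled TAM. All 4 tested B and plasma cell genes fell in control TAM, and 3 of them rose with the cKO label. The summed FPKM of the neutrophil list, led by Retnlg and Csf3r, was 32.96 to 34.5 in resident macrophages. It was 1245 to 1272 in control TAM and 1489 to 1654 in cKO-labelled TAM. Csf3r made most of the resident sum (32.3, 32.9 and 37.8 FPKM on average in the same order). Retnlg made most of the TAM sums (0.332, 1166 and 1420 FPKM). Of the 8 tested genes, 7 rose in control TAM, where Csf3r was not called. With the cKO label 5 of the 8 rose, Csf3r among them, and Ngp fell. The acinar list, led by Cela2a and Prss2, summed to 25326 to 26949, 68.3 to 71.8 and 285 to 296 FPKM in the same order (9 of 9 fell, then 9 of 9 rose). For the plasmacytoid dendritic cell, a strong interferon producer, 5 of 9 listed markers were in the table. Among these 5, 4 fell in control TAM, and 3 rose and 0 fell with the cKO label. Klk1 was at 173, 1.43 and 4.67 FPKM, and Cd209d at 123, 1.11 and 7.25. Both fell and then rose, as the acinar list did, and whether their RNA came from plasmacytoid dendritic cells was not tested. Siglech was at 22.2, 0.231 and 0.401 FPKM and was not called between the TAM groups. The epithelial list, led by Krt18 and Krt19, summed to 8.85 to 10.5, 267 to 275 and 270 to 282 FPKM. The monocyte list, led by F13a1 and Plac8, had 6 of 7 genes higher in control TAM (median log2 difference 3.28), with Plac8 rising from 9.84 to 364 FPKM and F13a1 falling from 1267 to 100.5. With the cKO label 1 of the 7 rose and 2 fell. The fibroblast list, led by Col3a1 and Dcn, had 4 of 5 tested genes higher in control TAM (median 3.01) and summed to 37.4 to 41.0, 161 to 164 and 121 to 125 FPKM. The part of these cells in the values below was not tested. In bulk libraries, fewer cells of a type and less RNA per cell cannot be told apart.

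Control TAM expressed the set at a higher level than resident macrophages. Of the 33 members, 31 rose and 2 fell (limma on log2(FPKM + 1), Benjamini-Hochberg adjusted p under 0.05 over 11127 tested genes), beside 77.1% of all tested genes called in either direction, 39% higher and 38.1% lower. The groups did not overlap for any of the 33 (31 higher, 2 lower), as for 37.3% and 36.5% of all tested genes. The median log2 difference was 0.75 for the members and 0.0017 for all tested genes, and 11 members rose by at least 1 on the log2 scale, as did 9.98% of all genes, while none of the members fell by as much, as 6.95% of all genes did. The summed FPKM of the members was 842 to 848 in the resident libraries and 1627 to 1638 in control TAM, which is 0.155% to 0.160% and 0.354% to 0.355% of all FPKM. By role, the median log2 difference was 1.79 for the IFIT family, 1.72 for Isg15 and Usp18, 0.80 for the OAS family, 0.72 for the sensors, 0.72 for the transcription factors, 0.71 for the other effectors, 0.70 for the Mx pair and 0.39 for the ADP-ribosylation genes.

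In cKO-labelled TAM the members moved in both directions. Compared with control TAM, 7 members rose (Rtp4, Ifi35, Irf9, Oasl2, Usp18, Bst2 and Oas1a), 9 fell (Ifit2, Rsad2, Dhx58, Cmpk2, Dtx3l, Eif2ak2, Ddx58, Stat2 and Samhd1) and 17 did not pass the threshold, beside 39.6% of all tested genes called by limma in either direction, 20.5% higher and 19.1% lower. Libraries did not overlap for 8 members that were higher and 13 that were lower, as for 25.9% and 25.5% of all genes. The median log2 difference was 0.0059 for the members and 0.012 for all genes, and the median absolute difference was 0.13 and 0.15. No member reached a log2 difference of 1, as 1.01% of all genes did upward and 0.315% downward, and only Ifit2 and Rsad2 were called with at least 0.5. The summed FPKM was 1625 to 1652, overlapping control TAM, and its share of all FPKM was 0.334% to 0.340%, below every control TAM library. Both comparisons use the same control TAM libraries, so a member that is high in control TAM by chance enters them with opposite signs. In cKO-labelled TAM, 30 members were above every resident library and 2 were below every one, as were 39.2% and 36.3% of all tested genes. Because 1 was added to each FPKM before taking logs, differences of low genes come out too small, and the p-values measure the spread between these libraries alone.

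**Figure D1:**
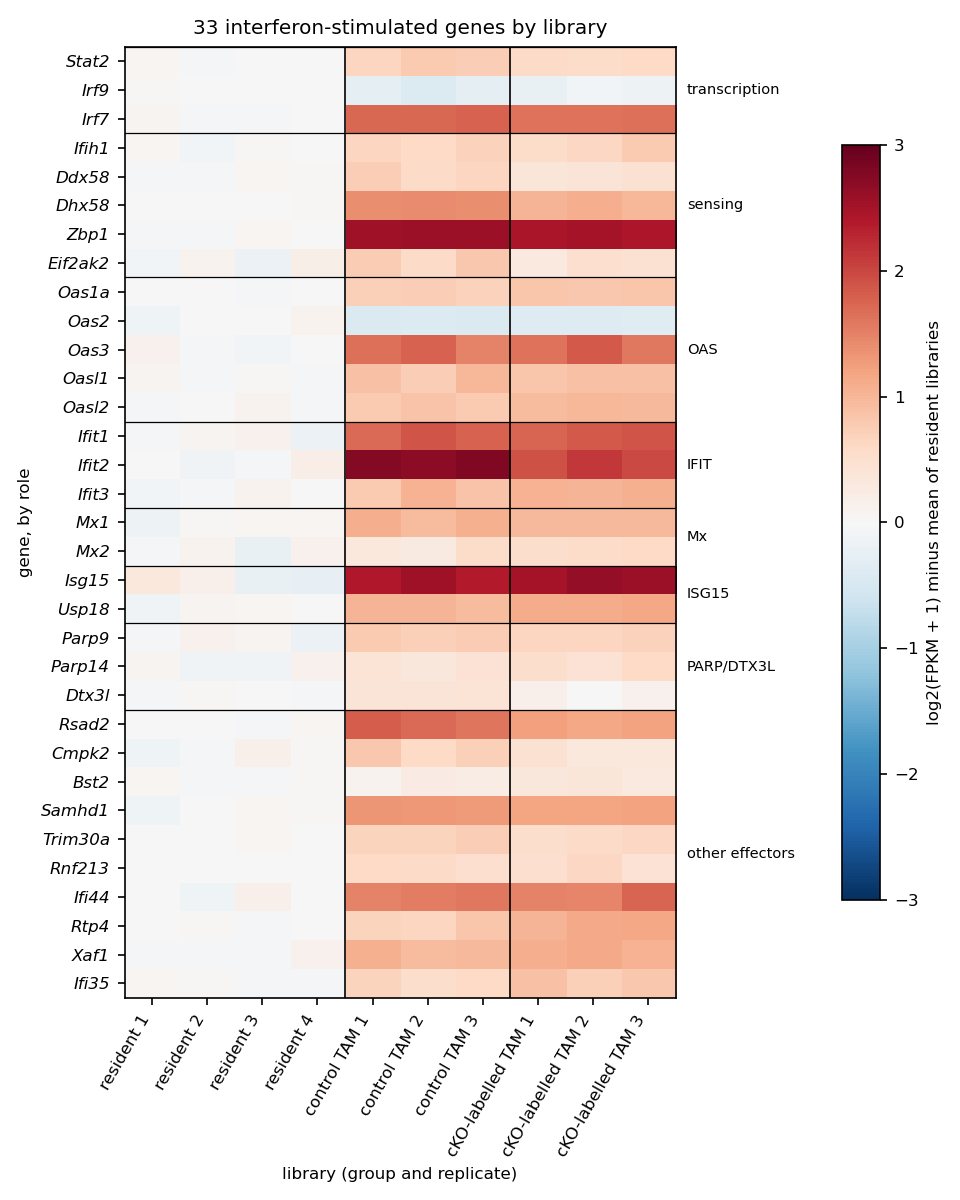
Log2 of (FPKM + 1) in each of the 10 libraries minus the mean of the 4 resident libraries, for all 33 members grouped by role (rows) and libraries by group (columns). The 3 control TAM columns are higher than the resident ones for all members but Irf9 and Oas2, and the 3 cKO-labelled columns for 30 members.

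**Figure D2:**
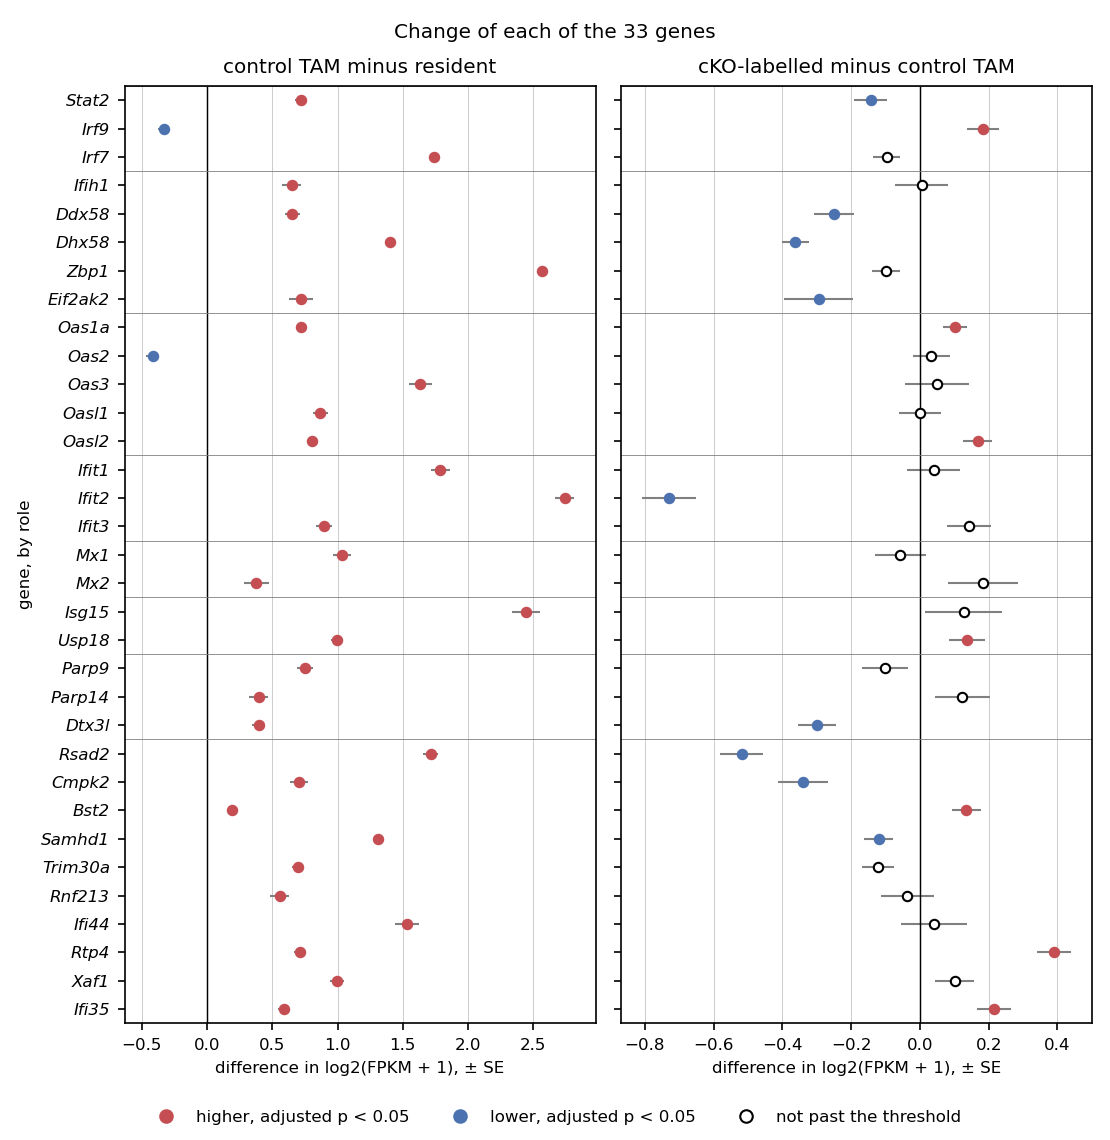
Log2 difference with its standard error for each of the 33 members, for control TAM minus resident and for cKO-labelled minus control TAM, where filled points passed an adjusted p of 0.05. The first comparison reaches 2.74 for Ifit2, and the second runs from -0.73 for Ifit2 to 0.39 for Rtp4.

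The transcription factors of the pathway did not move as one. Irf7 (chr7:141262706-141266481), the factor that amplifies interferon production, was at 38.0, 34.8, 35.2 and 35.6 FPKM in resident macrophages, at 120, 121 and 125 in control TAM and at 113, 114 and 114 in cKO-labelled TAM. Every TAM library was thus far above every resident one, and the cKO-labelled libraries lay just below the control TAM. Irf7 rose by 1.74 ± 0.04 (log2, SE; limma adjusted p = 3e-16), and its difference of -0.10 ± 0.04 between the TAM groups did not pass the threshold (limma adjusted p = 0.0595). Stat2 (chr10:128270559-128292849), an ISGF3 subunit, was at 21.0 to 22.7 FPKM in resident macrophages, at 34.2, 37.8 and 36.6 in control TAM and at 32.5, 32.2 and 33.3 in cKO-labelled TAM. It rose by 0.72 ± 0.04 in control TAM (limma adjusted p = 4.77e-10) and fell by 0.14 ± 0.05 with the cKO label (limma adjusted p = 0.028). Irf9 (chr14:55603571-55610030), the DNA-binding subunit of ISGF3, went the other way, with no overlap between groups. Its FPKM was 43.6, 42.1, 42.5 and 42.4 in resident macrophages, 34.7, 31.9 and 34.5 in control TAM and 36.7, 40.1 and 38.3 in cKO-labelled TAM. It fell by 0.33 ± 0.04 in control TAM (limma adjusted p = 3.39e-06) and rose by 0.18 ± 0.05 with the cKO label (limma adjusted p = 0.00534).

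All 5 nucleic acid sensors rose in control TAM, and 3 of them fell with the cKO label, where 39% of all tested genes were called higher in the first comparison and 19.1% lower in the second. Zbp1 (chr2:173206612-173218923), a sensor of Z-form nucleic acid that can start necroptosis, was at 13.4, 13.4, 14.4 and 13.8 FPKM in resident macrophages, 85.5, 87.0 and 86.0 in control TAM and 80.2, 82.4 and 78.8 in cKO-labelled TAM. Its control TAM mean was 6.27 times the resident mean (log2 2.56 ± 0.04, limma adjusted p = 4.1e-18), a gap far wider than the spread within either group. The cKO-labelled libraries lay below every control TAM library, without passing the threshold (-0.10 ± 0.04, limma adjusted p = 0.0673). Dhx58 (chr11:100694884-100704271) encodes LGP2, a regulator of the RNA helicase sensors. It was at 23.4 to 24.2 FPKM in resident macrophages, 64.1, 65.1 and 64.2 in control TAM and 49.5, 51.7 and 48.7 in cKO-labelled TAM. Each group was tight and separate from the others: Dhx58 rose by 1.40 ± 0.04 (limma adjusted p = 5.52e-15) and then fell by 0.36 ± 0.04 (limma adjusted p = 3.68e-06), to 77.5% of the control TAM mean.

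Ddx58 (chr4:40203773-40239828), which encodes the RNA helicase sensor RIG-I, was at 13.03 to 14.4 FPKM in resident macrophages, 23.7, 20.7 and 22.0 in control TAM and 17.9, 18.1 and 19.3 in cKO-labelled TAM. It rose by 0.65 ± 0.06 (limma adjusted p = 2.07e-08) and fell by 0.25 ± 0.06 (limma adjusted p = 0.00348), without overlap between groups. Eif2ak2, which encodes PKR, the kinase that stops translation on double-stranded RNA, was at 3.79, 4.45, 3.49 and 4.78 FPKM in resident macrophages, 7.69, 6.59 and 7.95 in control TAM and 5.29, 6.29 and 5.98 in cKO-labelled TAM. It rose by 0.72 ± 0.09 (limma adjusted p = 3.3e-06) and fell by 0.29 ± 0.10 (limma adjusted p = 0.0281). Ifih1, which encodes MDA5, the sensor of long double-stranded RNA, rose in control TAM by 0.65 ± 0.07 (limma adjusted p = 5.64e-07). Between the TAM groups its values overlapped (6.17 to 6.73 FPKM in control TAM and 5.99 to 7.21 in cKO-labelled TAM).

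The OAS family makes the oligoadenylate messenger that activates RNase L, and its members here, with the OAS-like genes, lie on chromosome 5 and did not all move one way. Oas3 (chr5:120753098-120777661) was at 2.51, 2.11, 1.997 and 2.18 FPKM in resident macrophages, 9.12, 9.81 and 7.90 in control TAM and 8.87, 10.5 and 8.54 in cKO-labelled TAM. It rose by 1.63 ± 0.09 (limma adjusted p = 5.37e-11), and the TAM groups overlapped. Oas2 (chr5:120730333-120749853) lies 3.24 kb away and was lower in TAM. It was at 21.4, 23.6, 23.6 and 25.0 FPKM in resident macrophages, 17.2, 17.5 and 17.1 in control TAM and 17.6, 17.5 and 17.9 in cKO-labelled TAM. Oas2 fell by 0.42 ± 0.05 in control TAM (limma adjusted p = 1.57e-06) and was not called between the TAM groups (0.03 ± 0.05, limma adjusted p = 0.652).

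Oasl2, an OAS-like protein, was at 55.9, 57.7, 62.0 and 56.6 FPKM in resident macrophages, 101, 106 and 99.9 in control TAM and 112, 116 and 116 in cKO-labelled TAM. It rose in both steps, by 0.80 ± 0.04 (limma adjusted p = 1.91e-11) and 0.17 ± 0.04 (limma adjusted p = 0.00503), with no overlap between groups. Oas1a was at 42.9 to 44.4 FPKM in resident macrophages, 72.6, 73.6 and 71.3 in control TAM and 78.0, 77.0 and 78.8 in cKO-labelled TAM. It rose by 0.72 ± 0.03 (limma adjusted p = 7.55e-12) and then by 0.10 ± 0.03 (limma adjusted p = 0.0293), although 57.6% of the 50-base windows of its longest transcript occur in Oas1g, so its reads may be divided between the genes. Oasl1 rose in control TAM by 0.87 ± 0.06 (limma adjusted p = 1.01e-09), from 13.5 to 15.1 FPKM in resident macrophages to 24.5 to 29.0, and its cKO-labelled values (26.2 to 27.1) lay within that range.

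The IFIT family, proteins that bind viral RNA and block its translation, lies in a cluster on chromosome 19 and held the member with the strongest difference in both comparisons. Ifit2 (chr19:34550694-34576419) was at 3.93, 3.60, 3.75 and 4.69 FPKM in resident macrophages, 32.5, 31.0 and 33.2 in control TAM and 17.7, 20.8 and 18.7 in cKO-labelled TAM. The 3 groups were far apart, with cKO-labelled TAM between the others. Its control TAM mean was 8.07 times the resident mean (log2 2.74 ± 0.07, limma adjusted p = 7.57e-15). With the cKO label it fell by 0.73 ± 0.08 (limma adjusted p = 3.45e-06), to 59.2% of the control TAM mean. Ifit3 starts 7.11 kb beyond Ifit2 and Ifit1 a further 52.1 kb beyond Ifit3, and neither was called between the TAM groups. Ifit1 (chr19:34640871-34650009) was at 7.35, 7.99, 8.41 and 6.54 FPKM in resident macrophages, 26.9, 30.4 and 28.3 in control TAM and 27.6, 29.7 and 30.8 in cKO-labelled TAM. It rose by 1.79 ± 0.07 (limma adjusted p = 1.31e-12), and the TAM groups overlapped (0.04 ± 0.08, limma adjusted p = 0.707). Ifit3 was at 13.7 to 15.6 FPKM in resident macrophages, 25.9, 31.0 and 27.2 in control TAM and 31.1, 30.3 and 31.4 in cKO-labelled TAM. It rose by 0.90 ± 0.06 (limma adjusted p = 1.01e-09) and was not called between the TAM groups (0.14 ± 0.06, limma adjusted p = 0.0873), and 51.2% of its 50-base windows also occur in Ifit3b. Whether Ifit2 differed from its neighbours in its response to the label was not tested.

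**Figure D3:**
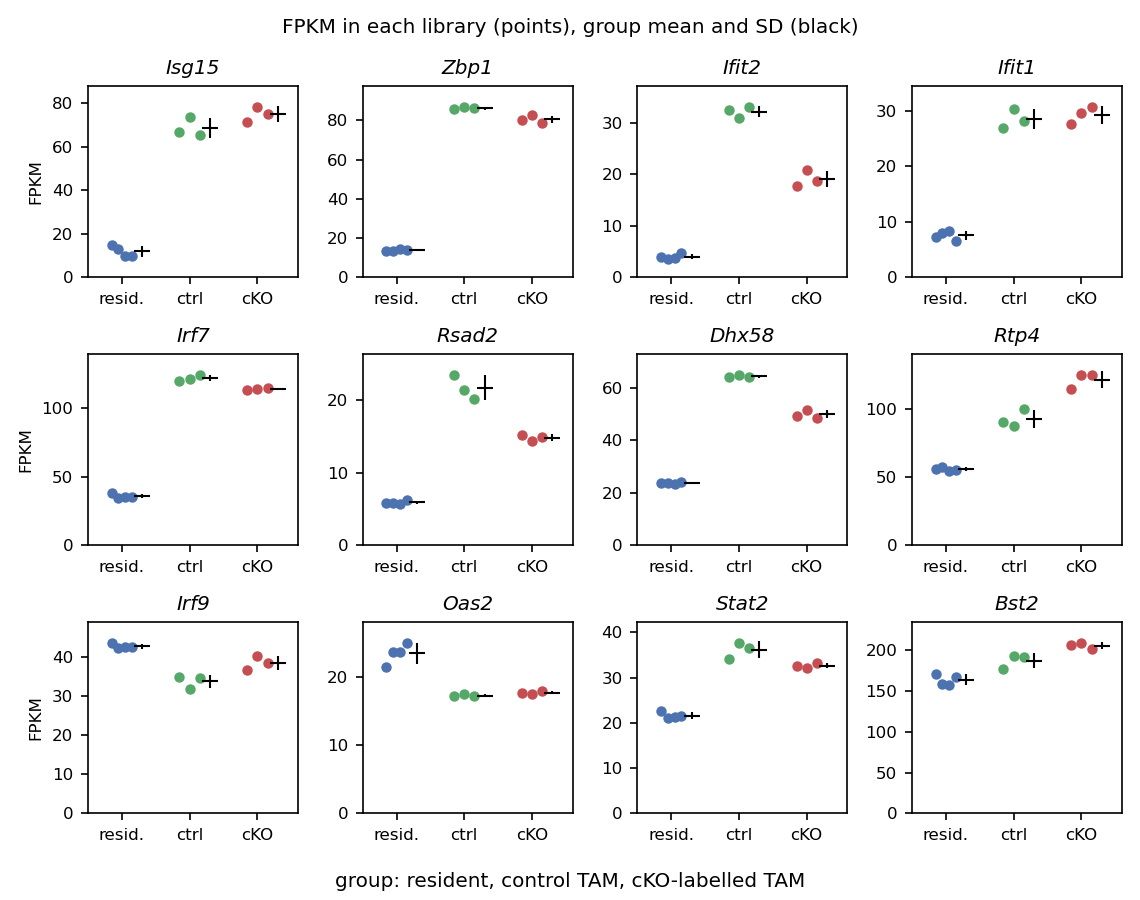
FPKM of 12 members (linear axes starting at 0) with 1 point per library and the group mean and SD in black, for resident macrophages (n = 4), control TAM (n = 3) and cKO-labelled TAM (n = 3). Ifit2, Rsad2 and Dhx58 in cKO-labelled TAM lie between the other groups, Rtp4 lies above both, and Irf9 and Oas2 are highest in resident macrophages.

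Isg15 and Usp18 encode a ubiquitin-like modifier and the protease that removes it, which also restrains the receptor. Isg15 (chr4:156199424-156200818) was at 15.001, 13.2, 10.1 and 9.77 FPKM in resident macrophages, 67.0, 73.8 and 65.4 in control TAM and 71.5, 78.5 and 75.3 in cKO-labelled TAM. The resident mean was 12.004 ± 2.53 (SD, n = 4), and every TAM library was far above every resident one. Isg15 rose by 2.44 ± 0.11 (limma adjusted p = 4.02e-12), while the TAM groups overlapped (0.13 ± 0.11, limma adjusted p = 0.394). Usp18 was at 21.3, 24.9, 24.6 and 23.0 FPKM in resident macrophages, 48.4, 48.3 and 46.3 in control TAM and 52.1, 52.2 and 53.4 in cKO-labelled TAM. It rose by 1.00 ± 0.05 (limma adjusted p = 2.27e-11) and, close to the threshold, by a further 0.14 ± 0.05 (limma adjusted p = 0.0492).

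The Mx pair encodes dynamin-like GTPases that trap viral ribonucleoproteins, of which most laboratory mouse strains carry a defective Mx1. Mx2 is annotated as a polymorphic pseudogene, so its RNA need not give a working protein. Mx1 was at 2.71, 3.22, 3.27 and 3.26 FPKM in resident macrophages, 7.69, 6.94 and 7.63 in control TAM and 7.06, 7.11 and 7.10 in cKO-labelled TAM. Mx2 was at 1.28, 1.49, 1.00 and 1.56 FPKM in resident macrophages, 1.88, 1.79 and 2.39 in control TAM and 2.33, 2.39 and 2.54 in cKO-labelled TAM. Both rose in control TAM (1.03 ± 0.07, limma adjusted p = 1.09e-09, for Mx1 and 0.38 ± 0.10, limma adjusted p = 0.00209, for Mx2), and neither passed the threshold between the TAM groups.

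Parp9 and Dtx3l encode partners in an ADP-ribosylating ubiquitin ligase, and Parp14 a related transferase. Parp9 (chr16:35938470-35972605) was at 17.9, 20.4, 19.7 and 16.3 FPKM in resident macrophages, 32.7, 30.9 and 32.1 in control TAM and 29.3, 29.4 and 30.3 in cKO-labelled TAM. Dtx3l (chr16:35926511-35939151), on the other strand, was at 11.9, 12.5, 12.3 and 11.9 FPKM, then 16.3, 16.1 and 16.5, then 13.7, 12.2 and 13.3 in the same order. Both were lower in every cKO-labelled library than in any control TAM library, and 1 of the cKO-labelled libraries was within the resident range of Dtx3l. Dtx3l rose by 0.39 ± 0.05 (limma adjusted p = 3.75e-06) and fell by 0.30 ± 0.06 (limma adjusted p = 0.000553). Parp9 rose by 0.75 ± 0.06 (limma adjusted p = 1.6e-08), and its difference of -0.10 ± 0.07 between the TAM groups was not called (limma adjusted p = 0.25). The pair overlaps by 682 bases, and the library kit keeps no strand, so reads from there cannot be assigned to either gene. Parp14 rose in control TAM by 0.39 ± 0.08 (limma adjusted p = 0.000184), from 4.49 to 5.47 FPKM in resident macrophages to 6.51 to 7.003, and was not called between the TAM groups (6.999 to 8.01 in cKO-labelled TAM).

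Of the 10 other effectors, all 10 rose in control TAM, and with the cKO label 3 rose and 3 fell, where 39% of all tested genes were called higher in control TAM, and 20.5% higher and 19.1% lower with the cKO label. Rsad2 (chr12:26442746-26456452) encodes viperin, which makes a chain-terminating nucleotide. It was at 5.84, 5.90, 5.67 and 6.24 FPKM in resident macrophages, 23.5, 21.4 and 20.2 in control TAM and 15.3, 14.4 and 14.9 in cKO-labelled TAM. The mean rose 3.67-fold in control TAM (log2 1.71 ± 0.06, limma adjusted p = 1.87e-13) and fell to 68.3% of that with the cKO label (-0.52 ± 0.06, limma adjusted p = 1.19e-05). Cmpk2 (chr12:26469204-26479837), a mitochondrial nucleotide kinase, lies 12.8 kb away in the opposite orientation. It was at 13.2, 13.7, 16.2 and 14.8 FPKM in resident macrophages, 26.0, 22.5 and 24.1 in control TAM and 20.2, 18.3 and 18.2 in cKO-labelled TAM. Both neighbours had their highest values in control TAM and intermediate ones in cKO-labelled TAM. Cmpk2 rose by 0.71 ± 0.07 (limma adjusted p = 1.11e-07) and fell by 0.34 ± 0.07 (limma adjusted p = 0.00185).

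Samhd1 (chr2:157097533-157135265), a phosphohydrolase that depletes deoxynucleotides, was the member with the highest level in either TAM group. It was at 106, 117, 122 and 119 FPKM in resident macrophages, 293, 289 and 284 in control TAM and 264, 264 and 268 in cKO-labelled TAM. It rose by 1.31 ± 0.04 (limma adjusted p = 3.73e-14) and fell by 0.12 ± 0.04 (limma adjusted p = 0.0352). Bst2, which encodes tetherin, a membrane protein that holds budding virions on the cell, was the highest member in resident macrophages. It was at 171, 158, 157 and 167 FPKM in resident macrophages, 176, 193 and 192 in control TAM and 206, 209 and 201.3 in cKO-labelled TAM, so its groups were close but did not overlap. It rose by 0.19 ± 0.04 (limma adjusted p = 0.000307) and by a further 0.14 ± 0.04 (limma adjusted p = 0.0179).

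Rtp4, a chaperone of membrane receptors, had the strongest rise among the members with the cKO label. It was at 56.2, 57.5, 54.7 and 55.6 FPKM in resident macrophages, 90.2, 87.9 and 99.9 in control TAM and 115, 125 and 125 in cKO-labelled TAM. The 3 groups were separate and in rising order: Rtp4 rose by 0.71 ± 0.05 (limma adjusted p = 5.88e-10) and then by 0.39 ± 0.05 (limma adjusted p = 1.59e-05), to 131% of the control TAM mean. Ifi35 (chr11:101448407-101458698) was at 54.5, 54.3, 51.1 and 51.1 FPKM in resident macrophages, 84.0, 76.1 and 79.7 in control TAM and 98.2, 87.5 and 93.4 in cKO-labelled TAM. It rose in both steps, by 0.59 ± 0.05 (limma adjusted p = 7.6e-09) and 0.22 ± 0.05 (limma adjusted p = 0.00272).

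Ifi44 had the lowest level of all members in resident macrophages (0.618, 0.4996, 0.834 and 0.638 FPKM) and was at 3.57, 3.74 and 3.93 in control TAM and 3.64, 3.53 and 4.54 in cKO-labelled TAM. It rose by 1.53 ± 0.09 (limma adjusted p = 1.98e-10), with overlap between the TAM groups. The remaining effectors, Trim30a, Rnf213 and Xaf1, rose in control TAM by 0.70, 0.56 and 0.99 (log2) and were not called between the TAM groups. For Trim30a, a regulator of innate signalling, the libraries nonetheless did not overlap there (30.7 to 32.7 FPKM in control TAM and 27.8 to 30.0 in cKO-labelled TAM, limma adjusted p = 0.0519).

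**Figure D4:**
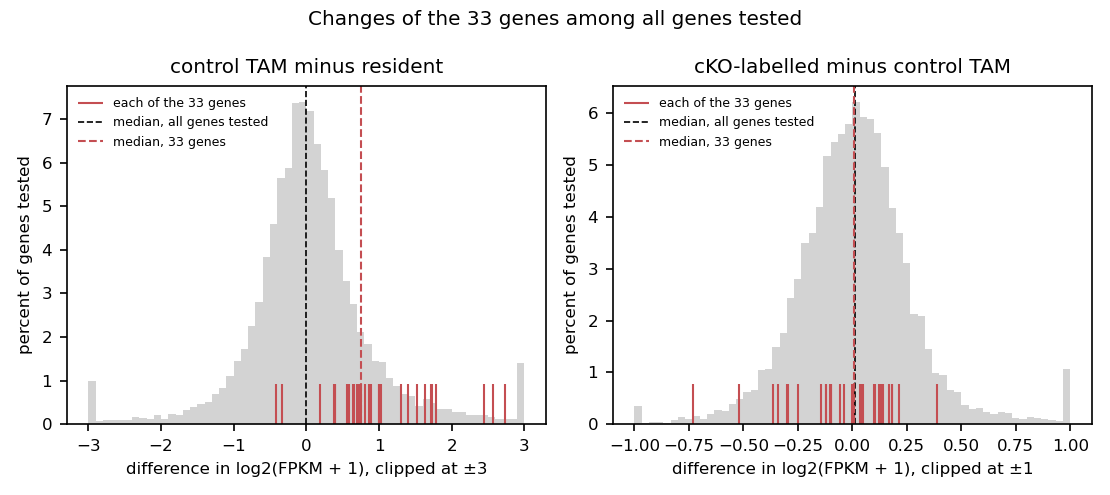
Distribution of the log2 differences of all 11127 tested genes (percent of genes, with values beyond 3 or 1 on the log2 axis put in the end bins) with the 33 members as red ticks and both medians as dashed lines, for control TAM minus resident and for cKO-labelled minus control TAM. The members' median is 0.75 in the first panel, to the right of that of all genes, and 0.0059 in the second, near the centre.

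The 31 rises and 2 falls in control TAM kept their direction under every alternative processing run, and the 3 low members Ifi44, Mx2 and Rnf213 lost their test only where a stricter filter removed them. The sizes of some depended on the scaling. With libraries rescaled to a common FPKM total, Irf9 was at -0.13, Oas2 at -0.21, Dtx3l at 0.59 and Bst2 at 0.41 (0.11 with quantile normalization). With voom on recovered reads, the low genes Mx2, Rnf213 and Ifi44 were at 0.76, 1.02 and 2.67. Calls between the TAM groups were less firm. Of the 7 members called higher, Rtp4 and Ifi35 were called under all 21 alternatives, and of the 9 called lower, Ifit2, Rsad2, Dhx58, Cmpk2, Dtx3l and Ddx58 were. With the libraries rescaled, 2 members were higher and 12 lower, and the share of all calls that were higher was 32.9% instead of 51.8%. The calls of Oas1a (0.02), Usp18 (0.06), Bst2 (0.06), Oasl2 (0.09) and Irf9 (0.11) ended there, and Stat2 was at -0.22 and Samhd1 at -0.20. Leaving out control TAM replicate 1 or cKO-labelled TAM replicate 2 left 4 members called higher. The calls of Stat2 and Eif2ak2 were lost when any of several single TAM libraries was left out, with limma adjusted p up to 0.114 (Stat2, without control TAM replicate 2) and 0.113 (Eif2ak2, without cKO-labelled TAM replicate 1), and those of Samhd1, Bst2, Oas1a and Usp18 were lost in the same way.

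Outside the 33 genes, most of the receptor and kinase genes were lower in control TAM. Of the 4 genes of this list (Ifnar1, Ifnar2, Jak1 and Tyk2), none rose and 3 fell in control TAM, and 1 rose and 2 fell with the cKO label. These counts stand beside 39% of all tested genes called higher and 38.1% lower in control TAM. With the cKO label the shares were 20.5% higher and 19.1% lower. The receptor subunit Ifnar1 was at 63.0, 50.2 and 47.5 FPKM on average and fell in control TAM (-0.32 ± 0.04, limma adjusted p = 5.38e-07). Its partner Ifnar2, at 64.1, 64.8 and 71.2 FPKM, was not called in control TAM and rose with the cKO label (0.13 ± 0.04, limma adjusted p = 0.0131). Both kinases fell in both steps: Tyk2 was at 30.2, 23.4 and 19.0 FPKM and Jak1 at 82.3, 68.2 and 57.6. The interferon ligand genes, Ifnb1 among them, were not analysed here.

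Regulatory genes around the pathway moved in both directions, at shares to be read against the 39% higher and 38.1% lower among all tested genes in control TAM and the 20.5% and 19.1% with the cKO label. Of 7 tested genes in the list of interferon regulatory factors outside the set, which includes the IRF2 partner gene Irf2bp2, 3 rose and 3 fell in control TAM, and 2 rose and 1 fell with the cKO label. Irf1 rose from 99.5 to 301 FPKM in control TAM (1.59 ± 0.03, limma adjusted p = 4.1e-17) and Irf4 fell from 5.79 to 1.32 (-1.55 ± 0.08, limma adjusted p = 5.72e-11), while Irf8 rose from 72.9 to 116 and fell to 107 with the cKO label. Irf3, the factor activated downstream of the sensors, fell from 36.6 to 28.1 FPKM and rose to 33.6 (0.25 ± 0.04, limma adjusted p = 0.000373), and Irf5 rose from 232 to 258 in that step. Of 16 tested genes that lead to interferon induction, 9 rose and 5 fell in control TAM, and 3 rose and 8 fell with the cKO label. Among them, Ifi205 was at 6.51, 33.3 and 24.5 FPKM, the kinase gene Ikbke at 14.9, 30.2 and 22.8, and the RNA receptor gene Tlr7 at 26.7, 12.96 and 8.96, and all 3 fell with the cKO label. Of 12 tested negative regulators, 6 rose and 4 fell in control TAM, and 3 rose and 3 fell with the cKO label. Socs1, an inhibitor of JAK kinases, was at 2.22 ± 0.461, 38.0 ± 2.14 and 45.8 ± 1.16 FPKM and rose in both steps (3.61 ± 0.09, limma adjusted p = 2.37e-15, and 0.26 ± 0.09, limma adjusted p = 0.0366). Socs3 rose from 70.4 to 256 FPKM and Pias1 fell from 59.2 to 28.8 in control TAM, and Nlrx1 and Adar fell with the cKO label (-0.24 and -0.22). Of the 3 tested genes of the interferon-gamma list, Jak2 rose in control TAM (0.80). Ifngr1, a receptor subunit of that pathway, fell from 435 to 234 FPKM in control TAM and rose to 279, and Ifngr2 rose in both steps (0.19 and 0.15).

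**Figure D5:**
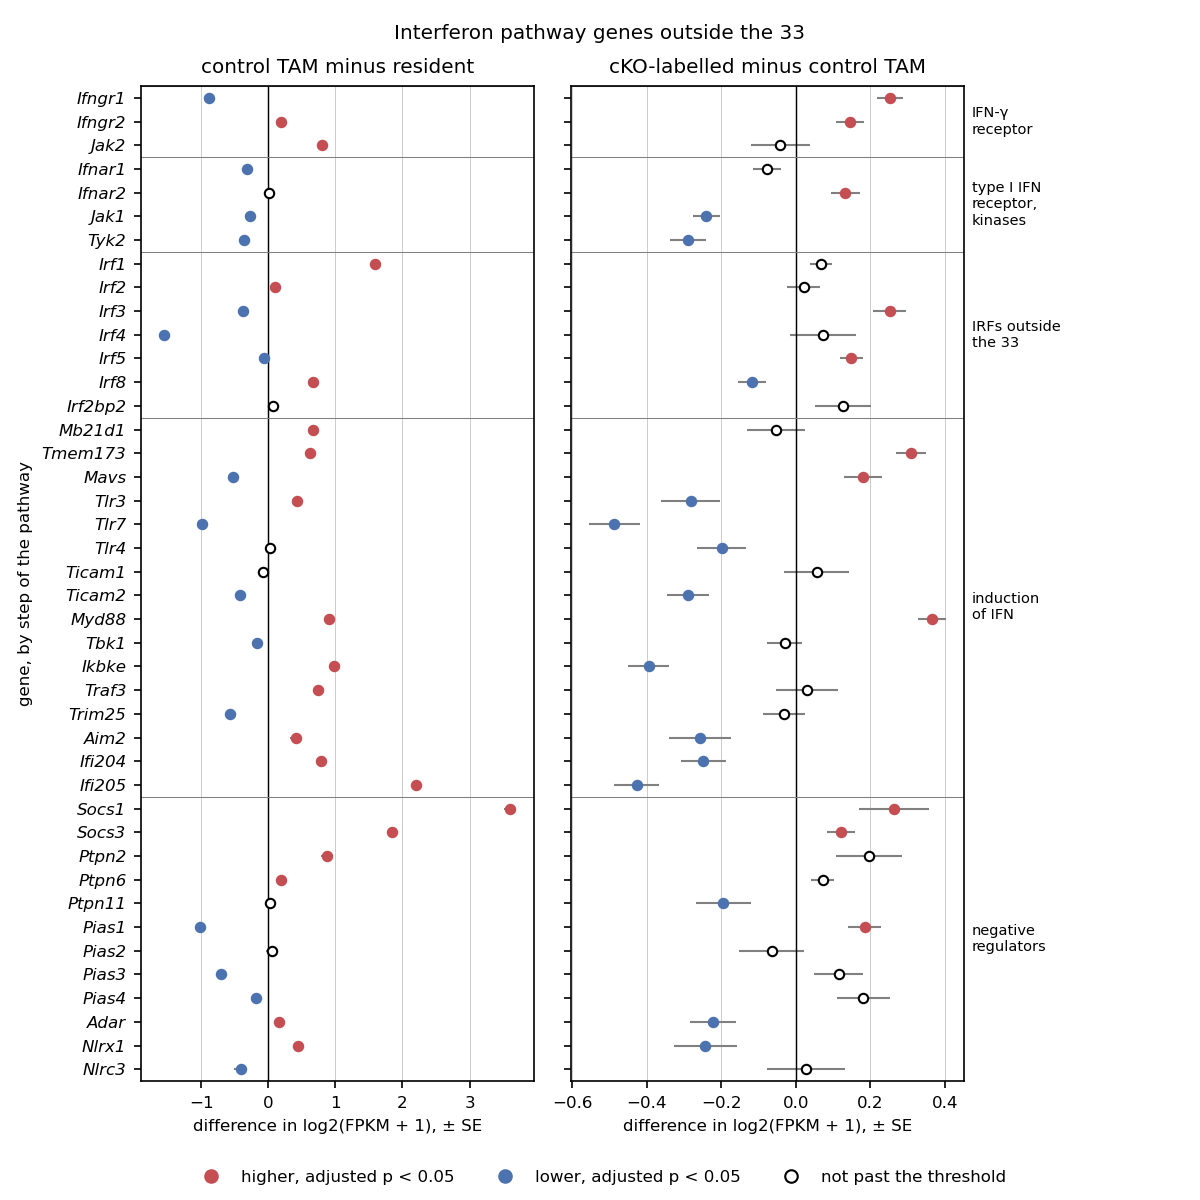
Log2 difference with its standard error for each tested gene of the receptor, regulatory factor, induction and negative regulator lists, for control TAM minus resident and for cKO-labelled minus control TAM, where filled points passed an adjusted p of 0.05. Socs1 at 3.61 lies farthest right in the first comparison, and Tlr7 at -0.49 farthest left in the second.

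Among 55 tested interferon-stimulated genes outside the set, 39 rose, 5 fell and 11 were not called in control TAM (median log2 difference 0.55), and 9 rose, 15 fell and 31 were not called with the cKO label (median -0.05). Of all tested genes, 39% were called higher and 38.1% lower in control TAM, and 20.5% and 19.1% with the cKO label. Many genes of this list also respond to interferon-gamma. The strongest in control TAM were Ly6a, which encodes the surface protein Sca-1 (10.3 ± 1.35, 821 ± 17.8 and 693 ± 24.5 FPKM), the chemokine gene Cxcl10 (2.82 ± 0.302, 73.5 ± 1.60 and 74.6 ± 2.31) and Cd274, which encodes PD-L1 (3.69 ± 0.253, 68.0 ± 0.374 and 58.4 ± 1.43). With the cKO label, Ifitm1 rose by 0.88 ± 0.11 (27.1 to 50.8 FPKM, limma adjusted p = 1.2e-05). Ifit3b, which shares sequence with Ifit3, rose by 0.71 ± 0.10 (1.87 to 3.71 FPKM, limma adjusted p = 3.08e-05), and Slfn9 fell by 0.66 ± 0.10 (3.36 to 1.77 FPKM, limma adjusted p = 6.53e-05).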

How the data were processed

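RNA-seq was measured in 10 libraries (4 resident, 3 control TAM, 3 cKO-labelled TAM). Extraction used 1 of 2 kits, and the RNA was amplified, per the labels, with a low-input SMART-Seq kit before Nextera XT preparation, which keeps no strand. The authors deposited FPKM per gene, and the submitters' processing notes name STAR, edgeR, mm10 and GRCm38, without versions. How gene lengths, scaling and the gene filter were set is not stated in the labels.

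Of its 12535 genes, 316 lack a symbol, and 12523 identifiers matched GENCODE M21, whose coordinates are used. Depth was recovered from whole-read steps in low FPKM values, with the longest transcript as length: 85.8% to 87.1% of values up to 200 reads came out whole within 0.05 in each library. Since FPKM are not counts, limma 3.58.1 (R 4.3.3) was fitted to log2(FPKM + 1) with 3 group means over all 10 libraries and a variance trend (7 residual degrees of freedom), on the 11127 genes that reached 1 FPKM in 3 libraries or more, with Benjamini-Hochberg adjustment over all of them at 0.05. The script was tested on simulated data. Alternatives changed the pseudocount, filter, scaling, samples in the fit, variance trend and replicate block, left out each library, and, added after seeing the data, ran voom on the recovered reads.

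The 33 members, the gene lists and the tests were chosen with earlier results of these data known. Values per library are given for up to 3 called members with the strongest change per role and comparison, every called member opposite to the median and further members chosen after their values were seen. Of each pathway list, up to 3 called genes with the strongest change are named with the receptor genes. Of the marker lists, the highest genes of most of those described are named, and Adgre1, Csf1r, Itgam, Siglech and Ngp besides. Besides those, 1 further gene of the naming rule is not reported here.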

Additional observations from a re-analysis of the deposited data

Results flagged for a closer look

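For the 33 members, the 4 resident libraries were searched for a single library far from the others (a gap to the nearest value, as a share of the group's range, above Dixon's critical value), and 2 of 33 were found, where chance gives about 1 in 20. Mx1 was at 2.71 FPKM in resident replicate 1 and at 3.22 to 3.27 in the other resident libraries. Trim30a was at 19.8 FPKM in resident replicate 3 and at 18.7 to 18.9 in the others. Both genes stayed called higher in control TAM when the library was left out. The TAM groups, with 3 libraries each, were not searched.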

How the results depend on the processing

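For control TAM against resident macrophages, all 330 member results with a library left out and all 360 under other settings kept their direction and their side of the threshold, and the stricter filter (FPKM of at least 5) removed Ifi44, Mx2 and Rnf213. Rescaling moved the median of all genes by 0.18 and voom by 0.13 (log2), after which the members' median lay 0.78 and 0.86 above it, and calls that were higher made up 65.9% (rescaled) and 60.2% (voom) instead of 50.6%. Between the TAM groups, members called higher fell from 7 to 2 when rescaled, 4 with quantile normalization and 4 without a variance trend, and genes called higher fell from 2283 to 1496 when rescaled. With 1 library left out, 4 to 7 members were higher and 6 to 12 lower. The changes in direction all concerned uncalled members. Ifih1 was at -0.063 (rescaled), -0.0021 (quantile), -0.0078 (median of ratios) and -0.0051 (voom). When rescaled, Oas2 was at -0.041, Oas3 at -0.021, Ifit1 at -0.037 and Ifi44 at -0.021. With single libraries left out, Ifih1 ranged from -0.062 to 0.054, Oas3 from -0.030 to 0.11, Oasl1 from -0.060 to 0.058, Ifit1 from -8.5e-05 to 0.085, Rnf213 from -0.088 to 0.0087 and Ifi44 from -0.050 to 0.095. The cause was not tested. With the replicate number as a block, 31 members were higher and 2 lower in control TAM, and 5 higher and 8 lower with the cKO label, where Oas1a, Usp18 and Stat2 lost their calls. Same-numbered libraries deviated together with correlations of only -0.07 to 0.11, and not every library correlated best with its own number. The values thus show no pairing by number, but they cannot exclude that samples were collected or processed in pairs. Depth limits the low members: the fewest reads behind a value were 22 for Ifi44 and 30 for Mx2.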

Other observations

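Families of interferon-stimulated genes outside the 33 were looked at after their values had been seen. Among all tested genes, 39% were called higher and 38.1% lower in control TAM, and 20.5% and 19.1% with the cKO label. All 6 listed Schlafen genes, Slfn1, Slfn2, Slfn4, Slfn5, Slfn8 and Slfn9, rose in control TAM, from 0.55 (Slfn5) to 2.81 (Slfn4) on the log2 scale, and with the cKO label Slfn4, Slfn5 and Slfn9 fell (-0.22, -0.34 and -0.66). Phf11a, Phf11b and Phf11d rose in control TAM (1.75, 1.36 and 0.76) and all 3 fell with the cKO label (-0.56, -0.30 and -0.17). Of the Ifitm genes, which encode membrane proteins that restrict viral entry, Ifitm1 and Ifitm3 rose (2.54 and 0.53) and Ifitm2 fell (-0.45) in control TAM. With the cKO label Ifitm1 and Ifitm2 rose (0.88 and 0.64) and Ifitm3 was not called. Ly6e, which encodes a surface protein that affects viral entry, rose in both steps (0.48 and 0.39).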
